A study of Mus musculus with 15 samples.

Results

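The 10 genes described here encode cytokine receptor chains. They serve interleukin (IL)-2, IL-5 and IL-6, which the labels name for these cultures, or the related cytokines IL-3, IL-4 and IL-21. They were chosen by gene symbol as a fixed list, and all 10 were found among the 21669 genes with a symbol. All 10 also passed the filter on low expression that left 11299 genes to be tested. RNA-seq was done on 5 groups of cells from wild-type female C57BL/6J mice, stated to be between 6 and 9 weeks old, with 3 libraries deposited per group. Naive B cells (nB) were CD43- splenic B cells taken without culture. Activated B cells (actB, sorted as B220+GL7+CD138-) and plasmablasts (Pb, sorted as CD138+) came from 3 days of culture with bacterial lipopolysaccharide (LPS), IL-2 and IL-5, either with DMSO as the vehicle or with GSK343, an inhibitor of the histone methyltransferase EZH2. No group carries a transgene or a deletion. The stimulation label of the 3 Pb libraries with GSK343 names Il6 where that of every other cultured library names Il5, while the treatment text of the same 3 libraries, like the study's methods, names Il5. If the stimulation label holds, GSK343 and the change of cytokine cannot be told apart in Pb. The receptor genes were therefore read for what they show under both readings, with no choice made between them.

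Cytokine receptors of this family lack kinase activity and signal through Janus kinases (JAKs) bound to their tails, which phosphorylate STAT transcription factors. IL-2 binds a complex of *Il2ra* (CD25, which raises affinity), *Il2rb* (the signalling chain shared with IL-15) and *Il2rg* (the common γ chain, shared with IL-4, IL-7, IL-9, IL-15 and IL-21), and signals mainly through STAT5. IL-5 binds *Il5ra* together with the common β chain encoded by *Csf2rb*, which also serves IL-3 and GM-CSF, and mice hold a second β chain gene, *Csf2rb2*, whose product serves IL-3 alone. IL-6 binds *Il6ra* and then *Il6st* (gp130), the signalling chain shared with IL-11, oncostatin M, LIF and others, and signals mainly through STAT3. In mouse B cells IL-5 supports growth and antibody secretion, IL-4 acts through *Il4ra* and STAT6 in class switching, and IL-21 acts through *Il21r* and STAT3 in plasma cell formation.

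The files hold RPM, the reads of a gene scaled to the total reads counted in a library. Levels are given here as RPKM, which is RPM divided by the gene length in kilobases, so that genes can be compared. Between 19421830 and 26307413 reads were counted per library, so that 3 reads equal 0.114 to 0.154 RPM. Replicates 1 and 2 of nB differed by less than the sampling noise (chi-square per degree of freedom 0.0096, against 3.58 to 29.7 for the other pairs within a group) and were counted as 1 sample, which leaves 2 nB samples. For 6 of the 10 receptor genes these replicates held the same number of reads. Replicate 2 of the cultured groups stood apart from replicates 1 and 3, with 7.64 to 29.7 for pairs that include it and 3.58 to 6.07 for the others. B cell markers were present in each group, and the 6 plasmablast markers summed to 4621 to 5166 RPKM in Pb against 364.8 to 1200 elsewhere. The nB libraries also held transcripts of T cells (7 markers, 226 to 228 RPKM, of which *Cd2*, which B cells also express, made up 202.9), NK cells (4 markers, 14.0 to 15.97 RPKM) and myeloid cells (10 markers, 194.9 to 239.5 RPKM, with *Lyz2* at 166.2). In the cultured groups these sums were 46.5 to 82.4, 0.286 to 1.63 and 0.499 to 14.2 RPKM, and *S100a8*, *S100a9* and *Elane* had no read. Several receptor chains are expressed by such cells too, and the part of these cells in the nB values was not tested. In sorted populations, fewer cells with a transcript and less of it per cell cannot be told apart.

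The β chain genes lie side by side on mouse chromosome 15 (mm9), *Csf2rb2* at chr15:78112947-78136052 on the minus strand and *Csf2rb* at chr15:78156420-78184277 on the plus strand, 20.4 kb apart, with *Il2rb* another 126.7 kb beyond at chr15:78310983-78325496. The coding sequences of *Csf2rb* and *Csf2rb2* were 95.2% identical over 2631 aligned bases, and their longest identical run was 242 bases. Of all 50-base stretches in their exons, 17.5% in *Csf2rb* and 19.5% in *Csf2rb2* also occurred in another gene, so that some reads fit both and the split between the pair is uncertain. The 120 bases of mm9 coding sequence with the most differences are shown with the 22 differing bases in capitals, because reads there can tell the IL-5 chain from the IL-3 chain. The window covers bases 309 to 428 of the *Csf2rb* and bases 312 to 431 of the *Csf2rb2* coding sequence.
Csf2rb: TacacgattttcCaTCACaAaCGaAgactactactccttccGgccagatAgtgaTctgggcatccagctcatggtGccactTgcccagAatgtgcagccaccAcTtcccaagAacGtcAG
Csf2rb2: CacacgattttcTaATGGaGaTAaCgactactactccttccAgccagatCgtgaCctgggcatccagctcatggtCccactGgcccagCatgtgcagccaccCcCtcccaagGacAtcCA

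A second pair of neighbours, *Il4ra* (chr7:132695785-132722986) and *Il21r* (chr7:132746943-132777084), lies 23.96 kb apart on the plus strand of chromosome 7. The exons of *Il2rg* (chrX:98459717-98463594) share 728 bases with the gene model *Gm20489* on the same strand. Of the 50-base stretches of *Il2rg*, 40.8% also occurred in another gene, most often *Gm20489*, so that the level of *Il2rg* may hold reads of both. The remaining members lie alone: *Il2ra* at chr2:11564419-11614818, *Il5ra* at chr6:106660378-106695103, *Il6ra* at chr3:89673246-89717084 and *Il6st* at chr13:113265216-113297068. Among these 4 genes and *Il2rb*, *Il21r* and *Il4ra*, at most 0.686% of the 50-base stretches occurred in another gene.

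The IL-2 receptor changed mainly in its α chain between nB and the cultured cells. *Il2ra*, the chain that gives high affinity, was 1.40 to 1.60 RPKM in nB (n = 2) and 36.0, 36.9 and 42.9 RPKM in the actB libraries with DMSO, so that the groups lay far apart. It rose by 4.47 ± 0.19 on the log2 scale (SE; 22.1-fold, limma adjusted p = 3.62e-10), the 46th largest rise of 11299 genes. In Pb with DMSO it was 31.5, 32.8 and 38.0 RPKM, which overlapped with actB (log2 difference -0.18 ± 0.17, adjusted p = 0.364). *Il2rb*, the β chain, was low throughout, with 5.76 and 6.40 RPKM in nB, 7.44, 7.52 and 10.1 RPKM in actB and 6.26, 6.41 and 9.62 RPKM in Pb. No pair of these groups differed for *Il2rb* by limma (adjusted p from 0.119 to 0.481), although every actB library lay above both nB samples. With the replicate block it was called higher than in nB, in actB (adjusted p = 0.00198) and in Pb (0.0403), and so was actB with the compared groups alone (0.0382) or without replicate 2 of the cultured groups (0.0351). *Il2rg*, the shared γ chain, was the most abundant of the 3 chains in every group and went down along the series, from 191.6 and 203.4 RPKM in nB through 125.6, 127.6 and 169.2 RPKM in actB to 81.0, 81.3 and 83.0 RPKM in Pb. It fell to 0.71-fold from nB to actB (log2 -0.50 ± 0.13, adjusted p = 0.00445) and to 0.59-fold from actB to Pb (log2 -0.77 ± 0.12, adjusted p = 9.74e-05), with no overlap at either step.

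The IL-5 receptor followed another course, since its α chain was low in actB and high on both sides of it. *Il5ra* stood at 16.6 and 21.8 RPKM in nB, at 3.15, 3.46 and 4.64 RPKM in actB with DMSO, and at 15.4, 15.4 and 25.4 RPKM in Pb with DMSO. It fell by 2.29 on the log2 scale from nB to actB (SE 0.26, adjusted p = 3.68e-06) and rose 4.66-fold from actB to Pb (log2 2.22 ± 0.23, adjusted p = 2.39e-06). The Pb and nB values overlapped (log2 difference -0.07, 95% interval -0.62 to 0.49, adjusted p = 0.816). The β chain *Csf2rb* rose at both steps, from 11.5 and 13.2 RPKM in nB to 27.6, 28.1 and 29.6 RPKM in actB and 84.4, 87.1 and 110.6 RPKM in Pb. The rises were 2.28-fold (log2 1.19 ± 0.11, adjusted p = 5.82e-07) and 3.27-fold (log2 1.71 ± 0.10, adjusted p = 1.08e-08). *Csf2rb2*, the chain for IL-3, was 3.57 and 4.87 RPKM in nB and 4.70, 4.94 and 6.60 RPKM in actB, which overlapped (adjusted p = 0.132, 0.0275 with the replicate block and 0.0427 with all 15 deposited columns). In Pb it reached 17.9, 19.5 and 27.4 RPKM, 3.83-fold above actB (log2 1.94 ± 0.18, adjusted p = 7.62e-07). The ratio of *Csf2rb* to *Il5ra* in RPKM was 0.607 to 0.689 in nB, 6.38 to 8.74 in actB and 4.35 to 5.68 in Pb with DMSO, so that the α chain transcript exceeded the β chain transcript in nB alone.

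The 2 chains for IL-6 moved apart. *Il6ra*, the chain that binds IL-6, was 13.2 and 15.1 RPKM in nB and fell by 1.88 on the log2 scale (SE 0.13, adjusted p = 3.16e-08) to 3.38, 3.80 and 3.82 RPKM in actB. In Pb with DMSO it was 2.82, 3.04 and 3.36 RPKM, just below actB without overlap (log2 -0.24 ± 0.11, adjusted p = 0.0755, 0.0267 with the replicate block and 0.0345 without Pb GSK343 replicate 1). *Il6st*, the signalling chain gp130, was 6.88 and 7.66 RPKM in nB and 6.65, 7.31 and 7.92 RPKM in actB, which overlapped (adjusted p = 0.978). It then rose 3.72-fold to 26.0, 28.1 and 29.1 RPKM in Pb (log2 1.90 ± 0.08, adjusted p = 5.61e-10). The ratio of *Il6st* to *Il6ra* in RPKM was 0.508 to 0.521 in nB, 1.92 to 2.07 in actB and 8.38 to 10.3 in Pb, and the ranges did not overlap.

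The receptors for IL-21 and IL-4 were lowest in Pb. *Il21r* was 101.2 and 104.8 RPKM in nB and rose 1.37-fold to 130.2, 138.8 and 154.3 RPKM in actB (log2 0.45 ± 0.12, adjusted p = 0.00354). In Pb it was 41.0, 47.6 and 51.2 RPKM, 0.33-fold of actB (log2 -1.59 ± 0.10, adjusted p = 3.58e-08) and below nB as well (log2 -1.14 ± 0.12, adjusted p = 1.15e-06). *Il4ra* fell at both steps without overlap, from 77.9 and 78.3 RPKM in nB to 17.3, 18.6 and 22.4 RPKM in actB (log2 -2.00 ± 0.12, adjusted p = 1.4e-08) and 6.22, 6.28 and 7.47 RPKM in Pb (log2 -1.51 ± 0.11, adjusted p = 1.03e-07). From nB to Pb it fell 11.4-fold, the largest fall of the 10 genes. Its neighbour on chromosome 7, *Il21r*, thus had the opposite direction from nB to actB and the same direction from actB to Pb.

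**Figure D1:**
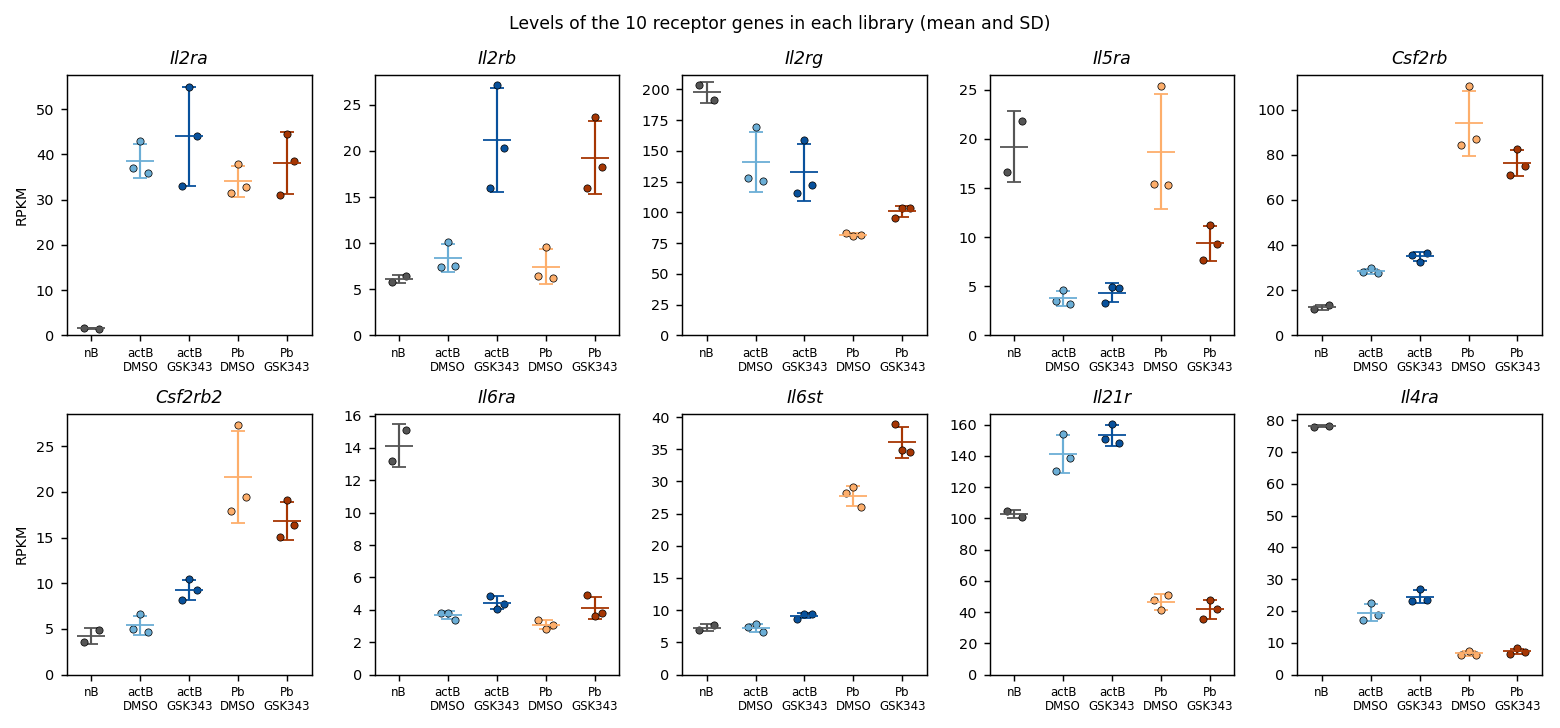
Level of each receptor gene in RPKM (y axis, from 0) in nB (n = 2, replicates 1 and 2 merged) and in actB and Pb with DMSO or GSK343 (n = 3 each); points are libraries, and bars give the mean and SD. *Il2ra* separates nB (1.40 to 1.60 RPKM) from all cultured libraries (31.1 to 55.0 RPKM), *Il6st* separates Pb (26.0 to 38.9 RPKM) from the other groups, and *Il5ra* is low in actB (3.15 to 4.97 RPKM).

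Over the 10 genes, 7 were called in actB with DMSO against nB, 3 of them higher and 4 lower, where 77.2% of all genes were called (40.9% higher, 36.3% lower). Between Pb and actB 7 were called, 4 higher and 3 lower, beside 69.7% of all genes (27.3% higher, 42.4% lower). Between Pb and nB 8 were called, 4 in each direction, beside 80.6% of all genes (39.5% higher, 41.1% lower). The share called was thus near that of all genes in each comparison. The 3 comparisons share groups. The median log2 difference of the 10 genes was 0.17, -0.18 and 0.09, against 0.05, -0.12 and -0.02 over all genes. Groups did not overlap for 8 of the 10 genes in each comparison, where 83.4%, 71.9% and 86.9% of all genes did not.

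With GSK343 in actB, the chain *Il2rb* was the receptor gene that rose most, with smaller rises of *Csf2rb2* and *Il6st*. These 3 of 10 were called higher and none lower, against 10.4% of all genes called, 8.2% as higher and 2.16% as lower. The groups did not overlap for 6 of 10 members, where 25.9% of all genes did not overlap. *Il2rb* went from 7.44, 7.52 and 10.1 RPKM with DMSO to 16.003, 20.4 and 27.2 RPKM with GSK343, so that every library with GSK343 lay above every one with DMSO. The rise was 2.46-fold (log2 1.30 ± 0.21, adjusted p = 0.00319), the 26th largest of 11299 genes, and it stayed past the threshold in each of the 12 other settings and 14 fits without 1 library (adjusted p from 1.32e-05 to 0.0387). *Csf2rb2* was 8.17, 9.26 and 10.4 RPKM with GSK343 (log2 0.76 ± 0.18, adjusted p = 0.0181), all above the 4.70 to 6.60 RPKM with DMSO. *Il6st* was 8.65, 9.35 and 9.47 RPKM, above the 6.65 to 7.92 RPKM with DMSO (log2 0.32 ± 0.08, adjusted p = 0.0201).

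The calls of the smaller rises changed with the libraries in the fit. For *Csf2rb2* the call was lost with the compared groups alone (adjusted p = 0.0574) and without actB DMSO replicate 1 (0.0704) or 3 (0.0737) or GSK343 replicate 2 (0.0511) or 3 (0.0568). That of *Il6st* was lost with the compared groups alone (0.101) and without DMSO replicate 1 (0.0591) or 3 (0.0818) or GSK343 replicate 3 (0.0778). Another 2 genes passed the threshold only in some fits. *Csf2rb* (35.7, 32.7 and 36.5 RPKM with GSK343 against 27.6 to 29.6 RPKM) had a log2 difference of 0.30 ± 0.10 with an adjusted p of 0.0773, which was 0.039 with the replicate block and 0.024 without Pb DMSO replicate 2. *Il4ra* (23.2, 26.9 and 23.5 RPKM against 17.3 to 22.4 RPKM) had one of 0.34 ± 0.11 with an adjusted p of 0.0769, which was 0.000887 with the block and 0.0221 without actB DMSO replicate 2. With the block 5 of 10 genes were higher and none lower, beside 19.9% of all genes called (14.1% higher, 5.84% lower). Without replicate 2 of the cultured groups *Csf2rb* (adjusted p = 0.00755) and *Il4ra* (0.00509) also passed. The 10 myeloid markers summed to 8.31 to 14.2 RPKM in actB with GSK343 and to 4.15 to 5.44 RPKM with DMSO, mostly *Itgam* (9.95 against 4.27 RPKM, adjusted p = 0.00376). *Adgre1* was also higher (0.437 against 0.147 RPKM, adjusted p = 0.0156), *Lyz2* was at 0.772 against 0.422 RPKM (adjusted p = 0.265), and *S100a8*, *S100a9* and *Elane* had no read. In the same libraries the plasmablast markers *Jchain* (177 to 231 RPKM, adjusted p = 0.0277) and *Sdc1* (0.665 to 0.965 RPKM, adjusted p = 0.0422) were higher and the B cell marker *Fcer2a* was lower (77.7 to 42.6 RPKM, adjusted p = 0.0373), while the other 11 B cell and plasmablast markers were not called. The T cell marker *Thy1* was at 0.985 against 0.345 RPKM (adjusted p = 0.0251). *Csf2rb2* and *Il6st* were themselves higher in Pb than in actB with DMSO. The part of these marker shifts in the rises of the receptor genes was not tested. *Il2ra*, *Il2rg*, *Il5ra*, *Il6ra* and *Il21r* had log2 differences from -0.09 to 0.26, with adjusted p from 0.181 to 0.728. Among them only *Il6ra* did not overlap (4.07 to 4.88 RPKM with GSK343 and 3.38 to 3.82 RPKM with DMSO).

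In Pb, the libraries with GSK343 held more *Il2rb*, *Il6st* and *Il6ra* and less *Il5ra*. These 4 of 10 genes, 3 higher and 1 lower, stand beside 12.9% of all genes called, 7.9% as higher and 5% as lower. The groups did not overlap for 6 of 10 members, where 34.1% of all genes did not overlap. *Il2rb* again rose most, from 6.41, 9.62 and 6.26 RPKM with DMSO to 15.9, 23.7 and 18.2 RPKM with GSK343 in replicates 1, 2 and 3, with no overlap. The rise was 2.56-fold (log2 1.36 ± 0.21, adjusted p = 0.00206), the 27th largest of 11299 genes, and the call held in all other settings and left-out fits (adjusted p up to 0.0171). *Il5ra*, the receptor chain for the cytokine missing from the stimulation label of these libraries, was 15.4, 25.4 and 15.4 RPKM with DMSO and 7.64, 11.2 and 9.32 RPKM with GSK343. It fell to 0.52-fold (log2 -0.95 ± 0.23, adjusted p = 0.0181), the 44th largest fall, and was lower in each of the 3 pairs of the same number. The call was lost without Pb DMSO replicate 2 (log2 -0.71, adjusted p = 0.0588), GSK343 replicate 1 (log2 -0.82, 0.0777) or GSK343 replicate 3 (log2 -0.96, 0.0592). Even so, the Pb libraries with GSK343 lay above those of actB, at 3.15 to 4.97 RPKM.

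The chains for the cytokine that this label names instead were both higher. *Il6st* went from 28.1, 29.1 and 26.0 RPKM to 38.9, 34.9 and 34.5 RPKM (1.30-fold, log2 0.38 ± 0.08, adjusted p = 0.00793), and the call held in all 12 other settings and 14 fits without 1 library (adjusted p up to 0.0413). *Il6ra* went from 3.36, 2.82 and 3.04 RPKM to 4.89, 3.62 and 3.80 RPKM, which are 195 to 221 and 245 to 378 reads, and did not overlap. Its log2 difference of 0.38 ± 0.11 passed the threshold narrowly (adjusted p = 0.0448, 0.0105 with the replicate block, 0.0382 by edgeR). The *Il6ra* call was lost without the filter (0.0746), with quantile normalization (0.0812) or with the compared groups alone (0.108). It was also lost in 10 of the 14 fits without 1 library, those without either nB sample (0.0546 each), actB DMSO replicate 1 (0.0575) or 3 (0.0528), actB GSK343 replicate 3 (0.0628), Pb DMSO replicate 1 (0.0574), 2 (0.139) or 3 (0.109), and Pb GSK343 replicate 1 (0.168) or 3 (0.0742). In actB, where the labels name Il5 for all libraries, both genes also lay above DMSO in every GSK343 library (log2 0.26 for *Il6ra*, which was not called, and 0.32 for *Il6st*).

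Of the other members in Pb, *Il2rg* was 95.8, 103.6 and 103.2 RPKM with GSK343 against 81.0 to 83.0 RPKM, without overlap (log2 0.30 ± 0.12, adjusted p = 0.128, 0.0301 with the replicate block, 0.014 with the compared groups alone and 0.0492 without actB DMSO replicate 2). *Csf2rb* was 71.1, 82.7 and 75.2 RPKM against 84.4 to 110.6 RPKM, also without overlap but in the other direction (log2 -0.29 ± 0.10, adjusted p = 0.0709, 0.036 with the block). With the block 6 of 10 genes were called, 4 higher and 2 lower, beside 23.2% of all genes (13.1% higher, 10.2% lower). *Il2ra*, *Csf2rb2*, *Il21r* and *Il4ra* overlapped between DMSO and GSK343, with log2 differences from -0.34 to 0.15 and adjusted p from 0.255 to 0.64. Without replicate 2 of the cultured groups, *Il2rg* (adjusted p = 0.00764), *Csf2rb* (0.0416) and *Il21r* (log2 -0.35, 0.0124) passed and *Il6ra* did not (0.0567). In the same libraries the B cell markers *Pax5* (29.1 to 13.8 RPKM, adjusted p = 0.0022), *Ms4a1*, *Cr2* and *Fcer2a* were lower with GSK343, and the plasmablast marker *Sdc1*, which encodes the CD138 used for the sort, was higher (29.7 to 55.3 RPKM, adjusted p = 0.000575). *Irf4* was lower and *Prdm1*, *Xbp1*, *Jchain* and *Mzb1* were not called. The part of these shifts in the receptor values was not tested.

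**Figure D2:**
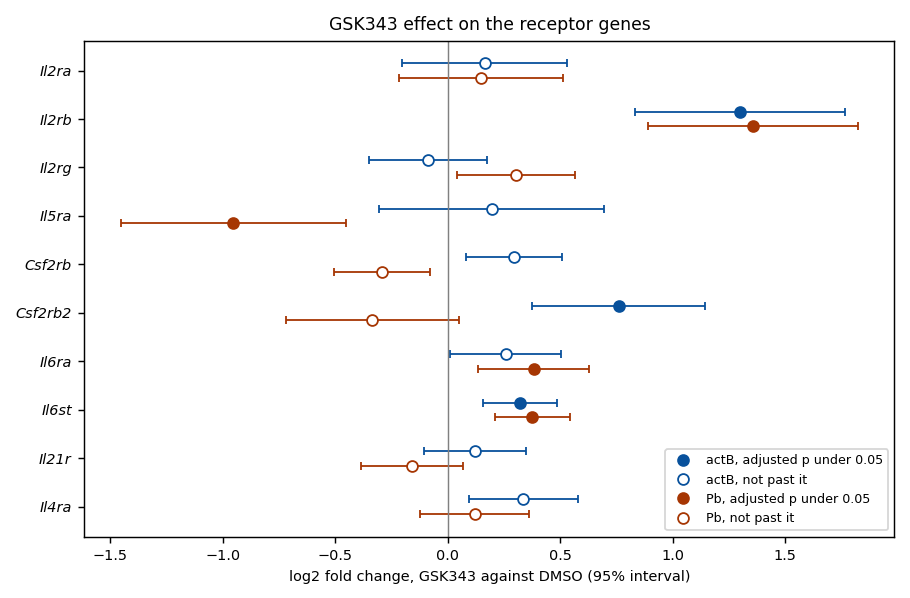
Log2 fold change of each receptor gene with GSK343 against DMSO (x axis) in actB (blue) and Pb (orange-brown), with 95% intervals from the limma fit; filled points have an adjusted p under 0.05. *Il2rb* lies at 1.30 and 1.36 in both cell types, while *Il5ra* (0.19 and -0.95), *Csf2rb* (0.30 and -0.29) and *Csf2rb2* (0.76 and -0.34) lie on opposite sides of 0.

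Whether the effect of GSK343 differed between Pb and actB was tested as an interaction. By limma 0 of the 10 genes passed, where 0.248% of all genes did, and edgeR also called 0, while 4 had an unadjusted p under 0.05. *Il5ra* had the largest difference (log2 -1.15 ± 0.32, adjusted p = 0.201), followed by *Csf2rb2* (log2 -1.10 ± 0.25, adjusted p = 0.123), *Csf2rb* (log2 -0.59 ± 0.14, adjusted p = 0.129) and *Il2rg* (log2 0.39 ± 0.17, adjusted p = 0.519). With the replicate block, *Il5ra* (adjusted p = 0.0261) and *Csf2rb2* (0.0145) passed and *Csf2rb* did not (0.052), where 1.23% of all genes passed. *Csf2rb* was higher with GSK343 in all 3 numbered pairs of actB (log2 0.14 to 0.40) and lower in all 3 of Pb (log2 -0.21 to -0.42). For *Il2rb* the difference was 0.06 with a 95% interval from -0.60 to 0.72, and for *Il6ra* and *Il6st* the intervals ran from -0.22 to 0.47 and from -0.18 to 0.29. Without replicate 2 of the cultured groups, *Csf2rb2* (adjusted p = 0.031) and *Csf2rb* (0.0232) passed.

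**Figure D3:**
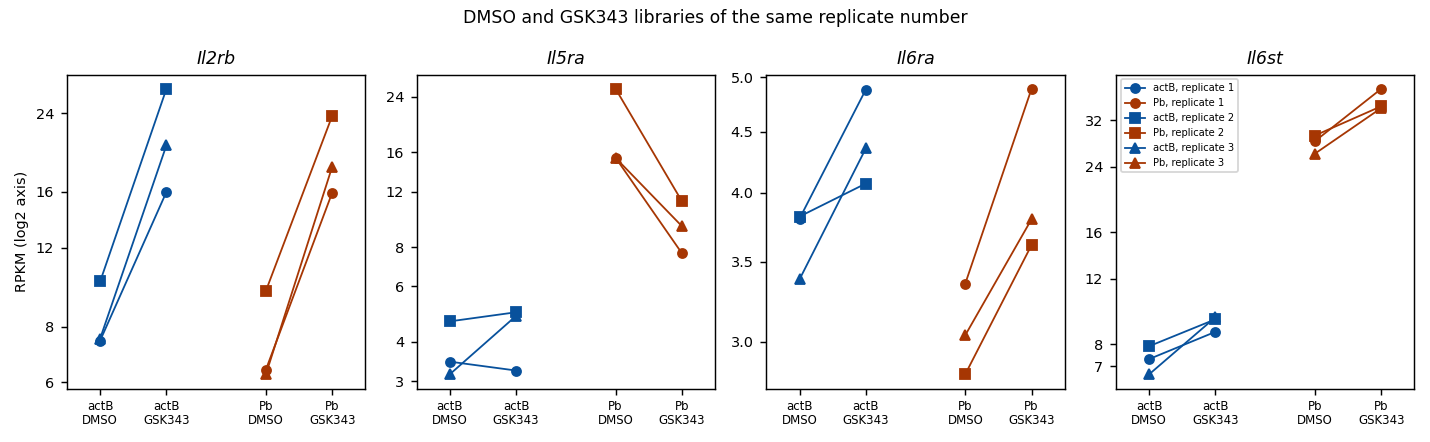
Level in RPKM (log2 axis, a different range per gene) of *Il2rb*, *Il5ra*, *Il6ra* and *Il6st* in actB and Pb libraries, with lines joining DMSO and GSK343 libraries of the same replicate number. *Il2rb* and *Il6st* go up in all 6 pairs, *Il5ra* goes down in the 3 Pb pairs and in 1 actB pair, and *Il6ra* goes up in all 6 pairs between 2.82 and 4.89 RPKM.

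Ratios between chains in the same library do not depend on its scaling. The ratio of *Il2ra* to *Il2rb* in RPKM went from 4.25 to 4.96 with DMSO to 2.02 to 2.16 with GSK343 in actB, and from 3.95 to 5.25 to 1.88 to 2.12 in Pb. That of *Il5ra* to *Il6ra* had a median of 0.933 with DMSO and 1.11 with GSK343 in actB, where the groups overlapped, and in Pb it went from 4.58 to 9.03 with DMSO to 1.56 to 3.09 with GSK343. The *Csf2rb* to *Il5ra* ratio in Pb was 4.35 to 5.68 with DMSO and 7.40 to 9.30 with GSK343, that is, the α chain was lower by more than the β chain. *Csf2rb* to *Csf2rb2* went from 4.49 to 5.86 with DMSO to 3.14 to 4.37 with GSK343 in actB, and in Pb the ratios overlapped (4.04 to 4.71 and 4.32 to 4.73). For the ratios that did not overlap the exact permutation test gave the two-sided p of 0.1, the smallest that 3 against 3 libraries allow, among 16 comparisons of 8 ratios, so that none could pass. The ratio of *Il6st* to *Il6ra* overlapped in both cell types (exact permutation p = 0.7 in actB and 0.9 in Pb).

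The genes for IL-2, IL-4, IL-5 and IL-21 were hardly transcribed by these cells. *Il2* had at most 2 reads, *Il4* at most 6, *Il5* at most 5 and *Il21* at most 6 in any library, and none of them passed the filter. *Il6* had 3 to 10 reads in nB and 208 to 238 in actB with DMSO (2.66 to 2.97 RPKM, adjusted p = 6.67e-07 against nB). *Il6* reached 1 RPKM only in actB and passed the filter through those columns alone, so that this rise was fixed in advance. In Pb it had 12 to 40 reads with DMSO and 4 to 22 with GSK343, and in actB with GSK343 it was 1.33 to 2.06 RPKM (log2 -0.67 ± 0.27 against DMSO, adjusted p = 0.134). Of the 8 ligand genes tested, 3 were higher with GSK343 in actB, *Osm*, the gp130 ligand oncostatin M (2.48 to 8.76 RPKM, adjusted p = 0.00074), *Il15*, a ligand of the *Il2rb* chain (0.585 to 1.47 RPKM, adjusted p = 0.0189), and *Clcf1* (13.6 to 21.3 RPKM, adjusted p = 0.00149), and *Il10* was lower (18.4 to 9.71 RPKM, adjusted p = 0.0294). In Pb 1 was called, *Clcf1*, another gp130 ligand (6.52 to 8.39 RPKM, adjusted p = 0.0258), and 2 were called higher with the replicate block. The main fit called 10.4% of all genes in actB and 12.9% in Pb, or 23.2% there with the block. A list of 8 genes is short to set beside these shares.

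Of 20 other cytokine receptor chains tested, GSK343 libraries of actB held 2 at a higher level and none at a lower one. Those of Pb held 2 higher and 4 lower. The shares called among all genes were 10.4% for actB and 12.9% for Pb. *Lifr*, 1 of the 2 in actB, was low (0.113 to 0.324 RPKM) and passed the filter only through the nB columns. With the block the calls were 3 higher for actB, and for Pb 2 higher and 6 lower, beside 19.9% and 23.2% of all genes. The largest was *Il13ra1*, which pairs with the *Il4ra* chain to bind IL-13 and IL-4, with 1.40 to 1.55 RPKM in Pb with DMSO and 3.19 to 4.51 RPKM with GSK343 (log2 1.16 ± 0.19, adjusted p = 0.00265). *Il11ra1*, which pairs with gp130, was lower in Pb (3.01 to 2.18 RPKM, log2 -0.42 ± 0.10, adjusted p = 0.0215), as were the interferon receptor chains *Ifnar1* and *Ifngr2* (log2 -0.31 and -0.36, adjusted p = 0.0217 and 0.0232). *Il27ra*, another chain that works with gp130, was higher in actB (8.94 to 11.7 RPKM, adjusted p = 0.0106). The median log2 difference of these 20 genes was 0.06 in actB and 0.04 in Pb, against 0.28 and 0.13 for the 10 receptor genes and 0.03 and 0.00 for all genes.

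Downstream of the receptors, 4 of the 11 JAK and STAT genes were higher in actB with GSK343: *Jak1* and *Jak2* (log2 0.16 and 0.35, adjusted p = 0.0449 and 0.0392), and *Stat5a* and *Stat5b*, which encode the STATs that IL-2 and IL-5 activate (log2 0.30 and 0.25, adjusted p = 0.014 and 0.0116). In Pb *Jak1* and *Tyk2* were higher (log2 0.18 and 0.21, adjusted p = 0.0265 and 0.0465). *Stat6*, the STAT of IL-4, was lower there (17.1 to 11.6 RPKM, log2 -0.55 ± 0.07, adjusted p = 0.000378). Called genes made up 10.4% of all genes in actB and 12.9% in Pb. *Stat3*, the STAT of IL-6 and IL-21, was 44.7 to 47.3 RPKM with DMSO and 46.4 to 48.3 RPKM with GSK343 in Pb (log2 0.03 ± 0.07, adjusted p = 0.846).

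Genes listed as targets of these STATs were read next. STAT activity itself was not measured, and the lists were chosen with earlier results of these data known. They do not separate genes that a STAT raises from genes that it lowers. Of 18 STAT3 target genes tested, not counting the members *Il4ra* and *Il6st*, 0 were called in Pb with GSK343 by limma or edgeR. None had an unadjusted p under 0.05, and 1 was called lower with the replicate block. Of all genes 12.9% were called in Pb by limma and 23.2% with the block, and 18 genes are few to set beside these shares. The feedback inhibitor *Socs3* was 9.08 RPKM with DMSO and 9.49 RPKM with GSK343 in Pb (log2 0.05 ± 0.17, adjusted p = 0.895). In actB, where the labels name Il5 for both treatments, 2 STAT3 targets were higher, *Socs3* (53.3 to 82.9 RPKM, adjusted p = 0.0294) and *Tnfrsf1b* (8.32 to 10.6 RPKM, adjusted p = 0.0226), and *Il10* was lower. Of 18 STAT5 target genes, not counting *Il2ra*, 7 were higher in actB with GSK343 and 3 in Pb, and none were lower. The feedback inhibitor *Socs2* rose in actB (4.08 to 11.5 RPKM, log2 1.44 ± 0.06, adjusted p = 1.3e-07) and less in Pb (19.8 to 33.8 RPKM, log2 0.77 ± 0.06, adjusted p = 3.42e-05), and the difference between them passed the test (log2 -0.67 ± 0.08, adjusted p = 0.0272). *Osm* is also in this list, and *Bcl6*, a repressor of plasma cell differentiation, was higher in both cell types (log2 0.41 and 0.71, adjusted p = 0.0227 in actB, 0.000955 in Pb). *Cdkn1a*, a cell cycle inhibitor, was higher in Pb (14.99 to 25.7 RPKM, adjusted p = 0.0182). Among 19 inhibitors of cytokine signalling, actB held 5 at a higher level with GSK343 and none at a lower one, while in Pb *Socs2* was higher and *Sh2b3* lower (log2 -0.32 ± 0.08, adjusted p = 0.0221). The STAT3, STAT5 and inhibitor lists overlap in *Socs2*, *Socs3* and other genes, so that their counts are not independent. With the replicate block, the STAT5 targets called were 9 higher and 1 lower in actB and 4 higher in Pb, and the STAT3 targets 4 higher and 1 lower in actB. The inhibitors called were then 10 higher in actB, and 3 higher and 1 lower in Pb. The JAK and STAT genes called were 4 higher and 2 lower in actB, and 2 higher and 3 lower in Pb. Of all genes, the fit with the block called 14.1% higher and 5.84% lower in actB, and 13.1% and 10.2% in Pb. By edgeR 5 STAT5 targets were called in actB, and 2 JAK and STAT genes in each cell type.

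**Figure D4:**
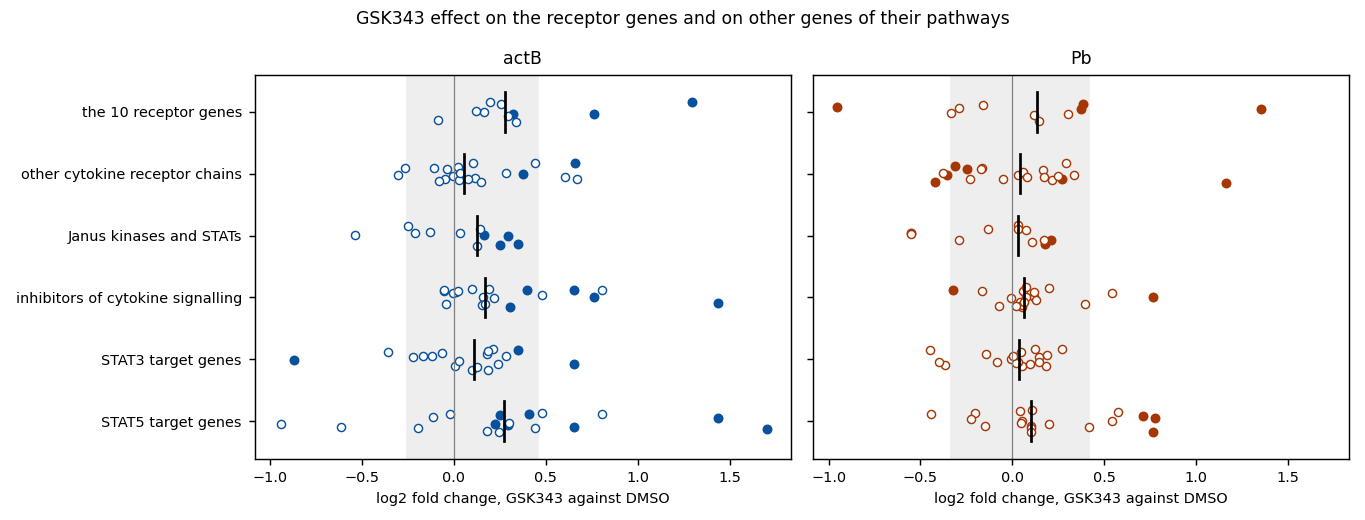
Log2 fold change with GSK343 against DMSO (x axis) in actB and Pb for the 10 receptor genes and for 5 lists of related genes (rows, points spread at random within a row); filled points have an adjusted p under 0.05, black lines are medians, and the grey band holds the middle 90% of all 11299 genes (-0.25 to 0.46 in actB, -0.33 to 0.42 in Pb). *Il2rb* is the point at 1.30 and 1.36, and the row of STAT3 targets has no filled point in Pb.

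From nB to actB with DMSO, 16 of the 20 other receptor chains were lower and 4 higher. Of all genes 36.3% were lower and 40.9% higher. *Csf3r* had the largest fall (3.92 to 0.0298 RPKM), and *Il9r* (19.5 to 1.55 RPKM) and *Il27ra* (41.5 to 8.94 RPKM) were also among the largest. *Il12rb1* had the largest rise (1.29 to 12.8 RPKM). *Csf3r*, *Lifr* (at most 0.383 RPKM outside nB) and *Il7r* passed the filter only through the nB columns, so that their fall was fixed in advance. So did *Ccnd1*, among the STAT3 targets counted below (10.4 to 11.5 RPKM in nB, at most 0.331 RPKM outside it). The counts and shares were not corrected for this. In the same comparison the JAK and STAT genes were 4 higher and 5 lower of 11, the inhibitors 6 higher and 9 lower of 19, the STAT3 targets 10 higher and 6 lower of 18, and the STAT5 targets 11 higher and 6 lower of 18. The inhibitor gene *Cish* rose from 0.454 RPKM in nB to 10.3 in actB and 26.2 in Pb (log2 5.23 ± 0.29 from nB to Pb, adjusted p = 2.35e-09). It was below 1 RPKM in nB and passed the filter only through the cultured columns, so that its rise was fixed in advance. *Jak1*, which binds *Il2rb*, *Il4ra* and gp130, fell from 152.4 RPKM in nB to 84.2 in actB and 31.5 in Pb. *Stat6* fell along with *Il4ra*, from 95.8 RPKM in nB through 51.3 RPKM in actB to 17.1 RPKM in Pb (adjusted p = 2.03e-07 for the first step, 7.85e-10 for the next). *Il10*, in the list of STAT3 targets, rose from 18.4 RPKM in actB to 79.4 in Pb while *Socs3* fell from 53.3 to 9.08 RPKM.

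For each receptor gene, the genes whose log2 levels were most alike over the 14 libraries were taken by Pearson r among 9060 genes, as a description of points that share groups. *Il4ra* was closest to *Lck* (r = 0.998), *Il21r* to *Irf8* (r = 0.994), *Il2ra* to *Scd2* (r = 0.993), *Il6st* to *Farp2* (r = 0.998) and *Csf2rb* to *Ankrd55* and *Rabl6* (r = 0.988 each). *Il6ra* was closest to *Filip1l* (r = 0.982), *Il2rg* to *Satb1* (r = 0.982), *Csf2rb2* to *Col20a1* (r = 0.9751) and *Il5ra* to *Ifnar1* (r = 0.965), which is itself a receptor chain called lower in Pb with GSK343. *Il2rb*, whose levels followed the treatment more than the cell type, had the lowest value for its closest gene, *Nabp1* (r = 0.897).

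Promoters were available from RefSeq (GRCm38.p6) for 8 of the 10 genes, all but *Il2rb* and *Csf2rb*, and each matched once in its mm9 chromosome. Each holds 250 bases before and 50 after the RefSeq start. That start lies 3.93 kb upstream of the annotated mm9 gene (GENCODE vM1) for *Il5ra* and 10.9 kb upstream for *Il6st*, so that these windows lie outside the gene spans given above, and at most 0.099 kb upstream for the other 6. The promoters of the genes that changed in opposite directions in Pb are shown, with capitals for a match to a STAT motif. The motifs searched were TTCNNNGAA and TTCNNNNGAA, which read the same on both strands and occur in 8.47% and 6.99% of 27025 promoters. Of the 8 receptor promoters, that of *Il5ra* held TTCNNNNGAA from base 278 of the window, after the start, that of *Csf2rb2* held TTCNNNGAA from base 236, and the others held neither. They also differed in CG dinucleotides, with 33 in *Il6st*, 25 each in *Il6ra* and *Il4ra*, and 3 to 7 in the others, against a median of 7 over all promoters. The windows lie at chr6:106698982-106699281 on the minus strand for *Il5ra*, chr3:89717069-89717368 on the minus strand for *Il6ra* and chr13:113254028-113254327 on the plus strand for *Il6st* (mm9).
Il5ra: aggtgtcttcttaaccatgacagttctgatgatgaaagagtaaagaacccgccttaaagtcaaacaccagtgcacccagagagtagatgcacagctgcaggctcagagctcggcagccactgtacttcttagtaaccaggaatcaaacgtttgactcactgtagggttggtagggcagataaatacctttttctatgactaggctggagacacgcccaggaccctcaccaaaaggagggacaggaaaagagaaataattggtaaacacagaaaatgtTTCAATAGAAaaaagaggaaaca
Il6ra: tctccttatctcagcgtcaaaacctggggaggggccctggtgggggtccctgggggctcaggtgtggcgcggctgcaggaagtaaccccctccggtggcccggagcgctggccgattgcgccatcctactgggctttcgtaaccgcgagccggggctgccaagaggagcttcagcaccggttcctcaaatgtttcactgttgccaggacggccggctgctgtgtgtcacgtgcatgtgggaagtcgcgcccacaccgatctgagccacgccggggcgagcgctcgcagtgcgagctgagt
Il6st: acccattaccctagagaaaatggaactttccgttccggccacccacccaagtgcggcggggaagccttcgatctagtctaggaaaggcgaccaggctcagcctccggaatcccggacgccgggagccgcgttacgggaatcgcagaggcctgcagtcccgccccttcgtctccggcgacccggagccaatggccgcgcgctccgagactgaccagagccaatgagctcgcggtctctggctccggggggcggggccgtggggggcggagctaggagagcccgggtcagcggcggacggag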

How the data were processed

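RNA-seq of 15 deposited libraries in 5 groups was used. The authors mapped the reads (mm9, TopHat2) and used GenomicRanges to count them over the exons of each gene. The deposited values are RPM, although the table is named for RPKM. Whether counting used the strand is not given in the sources used here. Every column had the same sum, and 100% of the values were whole multiples of 1 read, from which read counts were recovered. RPKM was computed from RPM and the deposited gene length. The 92 genes with no symbol (0.0531% to 0.0905% of reads) were left out. Replicates 1 and 2 of nB were merged, which left 14 libraries.

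Genes with at least 1 RPKM in at least 3 columns (11299) were tested by limma 3.58.1 under R 4.3.3 (with a trend, all groups together, 9 residual degrees of freedom) on log2(RPKM + 0.25). Fold changes are on that scale and understate the change of genes with low values. Adjusted p-values are two-sided, by Benjamini-Hochberg over all genes tested, with a threshold of 0.05. As alternatives edgeR 4.0.16 was run on the recovered reads (1156 genes called in actB and 1419 in Pb with TMM), along with other pseudocounts, filters and scalings, the compared groups alone, all columns, and each library left out. Leaving out replicate 2 of all cultured groups was added after the data were seen. The functions were tested on simulated data. The study describes the libraries of a cell type as biological replicates, and their titles are numbered m1 to m3. The labels do not say what the numbers stand for, and p-values measure the spread between these libraries.

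The replicate number was no term of the model, as none is named in the study's methods. Deviations from group means were correlated between cultured groups. Libraries numbered 1 gave r of 0.158 to 0.502 and those numbered 2 gave 0.435 to 0.713. Those numbered 3 gave 0.219 to 0.356 (6 pairs for each number). The 36 pairs of unlike number gave -0.603 to 0.370, which only the pairs numbered 2 exceeded throughout. The numbers thus appear to pair the samples, but this is less certain for numbers 1 and 3. Values with the number as a block are given where they change a call of a receptor gene or, as counts, of a list with GSK343 in either cell type.

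The members and gene lists were chosen with earlier results of these data known. Genes named are the 10 members, the cytokine genes *Il2*, *Il4*, *Il5*, *Il6* and *Il21*, the markers, up to 4 called genes per list and comparison with the largest change and at least 2 RPKM in a group, and the genes most alike to each member. *Stat3*, and *Socs3* in Pb, were named after their values were seen. Coding sequences were aligned with MAFFT 7.526. Coordinates are 1-based in mm9 (GENCODE vM1). The median log2 change of all genes was -0.12 from actB to Pb and -0.01 after median scaling.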

Additional observations from a re-analysis of the deposited data

Results flagged for a closer look

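With the replicate number as a block, the interaction test of GSK343 in Pb against actB called 2 receptor genes, beside 1.23% of all genes. The limma fit without the block and edgeR called 0 of the 10. For *Il5ra* the log2 effect in Pb minus that in actB was -1.15 (adjusted p = 0.0261 with the block and 0.201 without it). It fell in each of the 3 Pb pairs, with log2 differences from -0.09 to 0.58 in the actB pairs. In the 14 fits without 1 library the adjusted p for *Il5ra* was 0.14 to 0.441. For *Csf2rb2* the log2 effect in Pb minus that in actB was -1.10 (adjusted p = 0.0145 with the block and 0.123 without it). Its values were higher in all 3 actB pairs and lower in all 3 Pb pairs. The cytokine named in the stimulation label differs between the Pb libraries with GSK343 and the others, and it cannot be told apart from the treatment in Pb.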

How the results depend on the processing

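In 12 other settings and 14 fits without 1 library, *Il2rb* with GSK343 in both cell types and *Il6st* in Pb kept their calls, and the calls between cell types kept theirs. With the replicate block 5 receptor genes were called in actB, 6 in Pb and 2 for the difference, among 2248, 2626 and 139 genes in all. The block added receptor calls and took none away. With the compared groups alone 1 receptor gene and 386 genes were called in actB, and 4 genes for the difference. For the difference, quantile normalization gave 18 genes and all 15 columns gave 48. The next ranges cover the 14 fits without 1 library and the fit without replicate 2 of the cultured groups. In actB 1 to 5 receptor genes and 608 to 1740 genes were called, and in Pb 2 to 6 and 690 to 1977. For the difference 0 to 2 receptor genes and 0 to 146 genes were called. Without replicate 2 of the cultured groups 5, 6 and 2 receptor genes were called, among 1740, 1977 and 146 of 11299 genes. The main fit called 1170, 1458 and 28 genes. No fit without 1 library called a receptor gene for the difference.

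Directions that turned belonged to differences near 0 that were not called. *Il6st* in actB against nB was -0.07 with median scaling, -0.047 with quantile normalization, -0.005 with the block, -0.054 and -0.089 by edgeR with TMM and RLE, and -0.073 to 0.078 with libraries left out. *Il2ra* had a difference of effects of 0.012 with median scaling and -0.21 to 0.16 with libraries left out, and a GSK343 effect in actB of -0.011 to 0.353. The left-out ranges were -0.226 to 0.051 for *Il2rg* with GSK343 in actB, -0.306 to 0.125 for *Il5ra* in Pb against nB, and -0.13 to 0.25 for *Il2rb* and -0.005 to 0.117 for *Il6st* in the difference of effects. The cause was not tested.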
